A study of Homo sapiens with 10 samples.

Results

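Endothelins are short vasoconstrictor peptides that act on neighbouring cells. The 7 genes described here were the ligand genes EDN1, EDN2 and EDN3, the receptor genes EDNRA and EDNRB, and the converting enzyme genes ECE1 and ECE2. They were taken by symbol from the 23426 gene symbols of the RNA sequencing files, and each of the 7 had 1 row in every file. The family was picked because EDN2 stood among the genes with the largest falls under PKC412 in MDA-MB-468 cells. The members' values in that comparison, and every EDN2 value that includes it, are therefore given as a description, with no test.

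The 10 samples came from 2 human breast cancer cell lines for which the labels name no engineered change, MDA-MB-468, a basal line, and ZR75-1, a luminal line. PKC412 (midostaurin) is a staurosporine derivative that inhibits many protein kinases. In each line, 2 samples received the solvent DMSO and 3 received 1 μM PKC412, and RNA was taken after 6 h in all 10. Some figure legends of the study give a lower dose than its methods and labels, and the methods speak of triplicates, and only 2 DMSO samples per line were analysed here. Each type of breast cancer was represented by 1 line, and nothing in the labels says that samples of a group were separate cultures, so p-values measure the spread between these samples, which may be technical.

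Each endothelin is made as a long precursor that furin-type proteases cut to big endothelin, which a converting enzyme then trims to the active peptide. The peptides act through the G protein-coupled receptors encoded by EDNRA, which prefers the products of EDN1 and EDN2, and EDNRB, which binds all the endothelins. Signals from the receptors run mainly through Gq proteins and phospholipase C beta to inositol trisphosphate and calcium. The endothelium is the best known source of EDN1, and epithelial cells, breast carcinoma cells among them, can also transcribe the ligand genes.

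The lines carried the markers of their types. The summed FPKM (the fragment count of a gene divided by its transcript length and its library's mapped fragments) of 9 basal markers was 2509 to 2735 in the MDA-MB-468 samples and 20.1 to 26.2 in the ZR75-1 samples. Of the 9, 8 were higher in MDA-MB-468 in DMSO, and CDH3, which made up most of the ZR75-1 sum, was lower there (10.6 against 21.6 FPKM). The sum of 9 luminal markers was 3006 to 6563 in MDA-MB-468, with PGR listed at 0 in its samples, and 11967 to 20854 in ZR75-1. Of 5 endothelial markers, 3 were below 0.1 FPKM in both MDA-MB-468 groups and all 5 in both ZR75-1 groups. The number of reads was unknown, and a sample's FPKM summed to between 599228 and 835069 over all genes.

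Within the system, the ligand genes EDN1 and EDN2 and both converting enzyme genes were expressed in both lines, and transcripts of both receptor genes and of EDN3 were at or near 0. EDN2 was the member whose level set the samples apart most. It reached its highest level in MDA-MB-468 cells in DMSO. In PKC412 it lay below EDN1 in that line (5.03 against 8.07 FPKM on average). In both ZR75-1 groups its samples overlapped those of EDN1.

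EDN2 encodes endothelin-2 and lies on chromosome 1 (GRCh38, 41478775 to 41484673, minus strand). Its FPKM was 42.1 and 38.2 in MDA-MB-468 with DMSO, and 4.03, 5.94 and 5.12 with PKC412. ZR75-1 had 2.65 and 3.05 FPKM with DMSO, and 1.98, 3.61 and 1.43 with PKC412. Both DMSO samples of MDA-MB-468 stood far above the other 8, and the treated samples of that line still lay above all 5 ZR75-1 samples.

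EDN1 encodes endothelin-1 and lies on chromosome 6 (12290363 to 12297194, plus strand). In MDA-MB-468 its FPKM was 7.05 and 8.68 in DMSO and 8.82, 7.29 and 8.09 in PKC412. ZR75-1 cells had 2.73 and 4.18 in DMSO and 3.29, 3.06 and 4.83 in PKC412. The treatments overlapped in each line, and every MDA-MB-468 sample was above every ZR75-1 sample.

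Since these ligand genes differed so much in how they varied, the 250 bases before their RefSeq transcription starts are shown (GRCh38.p14, read 5′ to 3′ on the strand of the gene), from chr1:41484684-41484933 on the minus strand for EDN2 and from chr6:12290111-12290360 on the plus strand for EDN1. EDN1 had 3 such windows, and the one nearest to the start of the gene in GENCODE was taken. Capitals mark every match to the 6 motifs searched on both strands. The TATA box was searched as TATAA and the site of AP-1 as TGACTNA. The motif of GATA factors was searched as AGATAA, and that of the hypoxia-inducible factors as ACGTG. The motif of TEAD factors was searched as GGAATG, and that of SP1 as GGGCGG.
EDN2 promoter: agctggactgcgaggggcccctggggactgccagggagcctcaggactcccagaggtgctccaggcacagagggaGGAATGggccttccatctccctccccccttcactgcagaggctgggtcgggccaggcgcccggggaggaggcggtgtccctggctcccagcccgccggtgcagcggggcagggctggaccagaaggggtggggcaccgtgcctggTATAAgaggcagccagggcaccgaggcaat
EDN1 promoter: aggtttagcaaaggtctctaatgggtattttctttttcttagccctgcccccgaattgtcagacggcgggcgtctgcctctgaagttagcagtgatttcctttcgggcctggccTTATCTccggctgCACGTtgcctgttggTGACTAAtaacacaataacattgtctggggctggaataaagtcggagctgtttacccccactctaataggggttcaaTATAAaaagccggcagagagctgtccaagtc

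Both windows held a TATAA close to the start, at 30 to 26 bases upstream in EDN2 and 31 to 27 in EDN1. Of 35116 such windows of the RefSeq table, 18.9% had a TATAA at any position on either strand. The share with a TATAA close to the start was not counted. The EDN2 window had GGAATG at 175 to 170 bases upstream, a match found in 11.9% of windows. The EDN1 window had TGACTNA at 108 to 102 bases (9.8% of windows), and in reverse complement ACGTG at 123 to 119 (18.5%) and AGATAA at 136 to 131 (9.17%). None of the matches of these ligand genes overlapped another, and each describes only the letters of the window. The EDN2 window was 70.8% G and C and that of EDN1 49.2%, against a median of 58% over all windows. Windows were also found for EDNRA, EDNRB and ECE1, so 5 of 7 members matched. EDNRA and ECE1 each had GGGCGG, as did 42.6% of windows, and EDNRB had ACGTG.

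EDN3, which encodes endothelin-3 (chromosome 20, 59300427 to 59325992), was listed at 0 in all 10 samples. EDNRA (chromosome 4, 147480917 to 147544954) was listed at 0 in all 5 ZR75-1 samples. In MDA-MB-468 its FPKM was 0.00735 and 0 in DMSO and 0.0540, 0.0169 and 0.0358 in PKC412. EDNRB (chromosome 13, 77895481 to 77975529) was above 0 in 3 samples and reached at most 0.0123. With depth unknown, these values show that the genes were at or near 0, and they do not exclude a low level. EDN3, EDNRA and EDNRB did not reach a mean of 0.1 FPKM in any group and entered no test, which left 4 of the 7 members among the 16071 genes tested.

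ECE1 encodes the main endothelin-converting enzyme (chromosome 1, 21217247 to 21345572, minus strand). In MDA-MB-468 its FPKM was 8.94 and 8.48 in DMSO and 12.0, 10.3 and 11.5 in PKC412. The ZR75-1 samples had 13.0 and 13.0 in DMSO and 10.0, 10.6 and 13.1 in PKC412. The MDA-MB-468 DMSO samples were the lowest of the 10.

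ECE2 encodes a related enzyme that works at acidic pH (chromosome 3, 184276011 to 184293031, plus strand). In MDA-MB-468 its FPKM was 50.8 and 49.0 in DMSO and 33.5, 41.7 and 39.3 in PKC412. In ZR75-1 it was 34.0 and 26.3 in DMSO and 32.0, 34.8 and 22.9 in PKC412. The MDA-MB-468 DMSO samples were the highest of the 10. The gene overlaps the readthrough locus EEF1AKMT4-ECE2, and the files held no row for EEF1AKMT4, so how reads of that locus were shared is uncertain and the level of ECE2 is too.

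**Figure D1:**
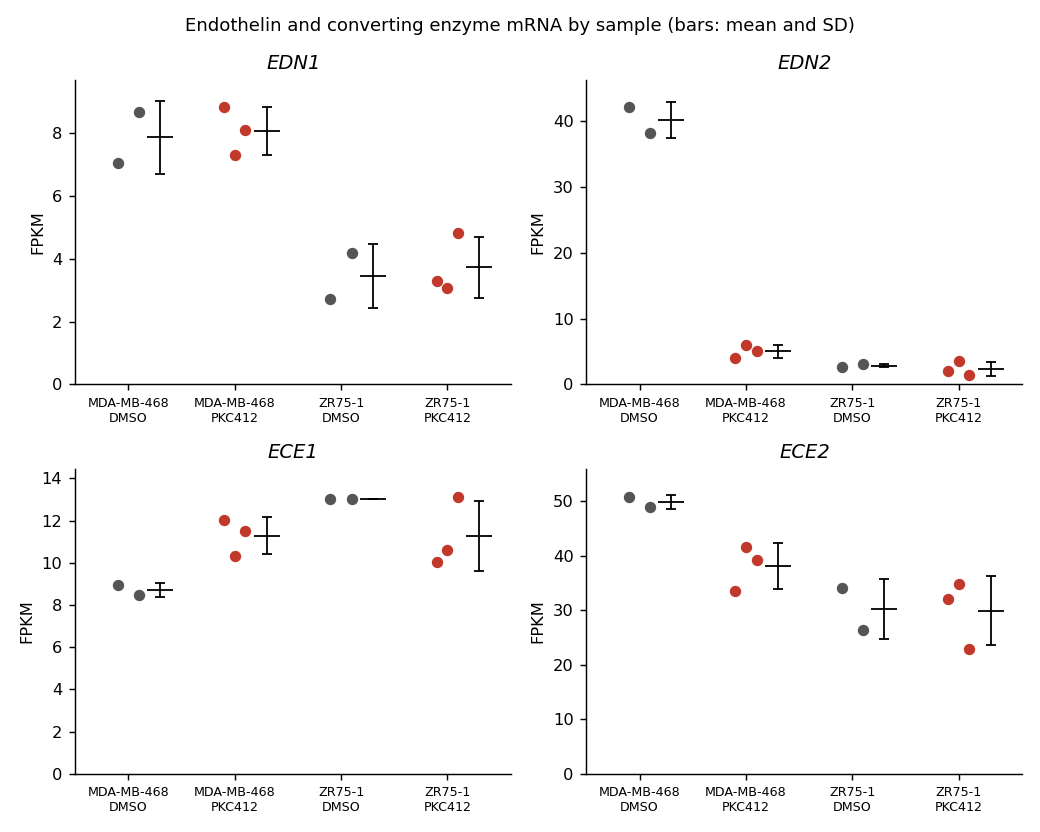
FPKM of EDN1, EDN2, ECE1 and ECE2 (vertical axes, each from 0) in the 10 samples, with 1 point per sample by cell line and treatment and the mean and SD beside the points. EDN2 stood near 40.2 FPKM in MDA-MB-468 DMSO samples and at 5.94 or less in the others, while EDN1 differed mainly between the lines.

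FPKM is scaled by transcript length, so levels can be set beside each other. In MDA-MB-468 cells in DMSO the order of mean FPKM was ECE2 (49.9 ± 1.28, SD, n = 2), EDN2 (40.2 ± 2.75), ECE1 (8.71 ± 0.328) and EDN1 (7.87 ± 1.15). The samples of ECE1 and EDN1 overlapped there, and those of the other neighbours did not. In the same line in PKC412 the order was ECE2 (38.2 ± 4.19, SD, n = 3), ECE1 (11.3 ± 0.882), EDN1 (8.07 ± 0.764) and EDN2 (5.03 ± 0.959), with no overlap between neighbours. Thus EDN2 went from the second place to the last of the 4.

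In ZR75-1 the order was ECE2, ECE1, EDN1 and EDN2 in both treatments. In DMSO the mean FPKM values were 30.2 ± 5.46, 13.0 ± 0.000124, 3.46 ± 1.03 and 2.85 ± 0.277 (SD, n = 2). In PKC412 they were 29.9 ± 6.27, 11.3 ± 1.65, 3.73 ± 0.964 and 2.34 ± 1.13 (SD, n = 3). The samples of EDN1 and EDN2 overlapped in both treatments, so their order there was not resolved. Among genes with a mean above 0.1 FPKM in the group, EDN2 stood at percentile 85.2 in MDA-MB-468 DMSO, 51.8 in MDA-MB-468 PKC412, 46.9 in ZR75-1 DMSO and 41.6 in ZR75-1 PKC412. ECE2 stayed between percentiles 83.1 and 87.3 in the 4 groups.

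The question of the design was what PKC412 does to transcription in the basal line and whether the luminal line responds alike. In MDA-MB-468 the mean FPKM of EDN2 was 7.99-fold lower in PKC412 than in DMSO, a difference of -2.78 on the scale of log2(FPKM + 1) (SE 0.27). That placed it 34th of 16071 genes by size of the fall on this scale. EDN1 differed by 0.03 (SE 0.22), ECE1 by 0.34 (SE 0.14) and ECE2 by -0.38 (SE 0.19). Of the 4 members, 1 passed the threshold of limma (adjusted p under 0.05), beside 1.26% of all genes, and nothing is read from this count since the family was selected on this comparison. The median over the 4 was -0.17, and that of all genes tested was 0.11.

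In bulk RNA, fewer cells that transcribe a gene and less transcript per cell cannot be told apart. Other values moved along with EDN2 in MDA-MB-468, and their part in the difference was not tested. The luminal marker sum was 5542 to 6563 FPKM in DMSO and 3006 to 3931 in PKC412. KRT8, KRT18 and KRT19 made up nearly all of it, and TFF1 was also lower in PKC412 (3.35 and 2.03 FPKM on average). XBP1 (72.4 and 144 FPKM on average), FOXA1 (1.31 and 2.92), GATA3 (5.27 and 5.82) and ESR1 (0.160 and 0.305) went the other way. The GATA3 samples of the treatments overlapped, and PGR was listed at 0. By limma none of the 9 passed, with a median log2 difference of 0. CD14, a monocyte marker, was at 20.2 to 23.3 FPKM in DMSO and 11.7 to 13.6 in PKC412, with PTPRC and CD3E at or near 0. The sum of 5 endothelial markers was 0.615 to 0.639 in DMSO and 0.963 to 1.13 in PKC412. PECAM1 made up most of that sum (0.470 and 0.827 FPKM on average). By limma PECAM1 passed as higher in PKC412, 1 of 2 endothelial markers tested, beside 1.26% of all genes. The sum of 5 fibroblast or smooth muscle markers was 1.17 to 1.19 and 1.91 to 1.98, and 0 of 2 tested passed. In each of these lists 3 markers were below 0.1 in both groups. The basal sum covered nearly the same range in both treatments, 2509 to 2735 in DMSO and 2511 to 2733 in PKC412.

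The samples also differed in how their FPKM ran with the GC content of transcripts. The slope of a sample's log2 deviation from the mean of its line was 0.37 and 0.06 per 10 percentage points of GC for the MDA-MB-468 DMSO samples and -0.29, -0.02 and -0.12 for those with PKC412. The longest coding transcript of EDN2 is 59.5% GC, close to ECE1 (58.5%) and ECE2 (58.4%), and that of EDN1 is 45.1%. After adjusting for GC and length, the EDN2 difference was -2.49 and that of EDN1 -0.28.

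Ratios within a sample do not depend on how that sample was scaled. They can still depend on its GC slope where transcripts differ in GC content, as those of EDN2 and EDN1 do. The ratio of EDN2 to EDN1 in FPKM was 5.98 and 4.41 in MDA-MB-468 DMSO samples and 0.457, 0.815 and 0.634 in PKC412 samples. The ZR75-1 ratio was 0.972 and 0.728 in DMSO and 0.601, 1.18 and 0.297 in PKC412. In the same order, the GC slopes of these samples were 0.31 and -0.19, and -0.11, 0.34 and -0.36. The part of GC in the ratio was not tested. Only the DMSO samples of MDA-MB-468 had clearly more EDN2 than EDN1, and the treated ones fell within the range of ZR75-1. EDN2 made up 81.5 to 85.7% of the summed ligand FPKM in MDA-MB-468 DMSO samples and 31.4 to 44.9% in PKC412 samples. The sum of EDN1 and EDN2 was 46.9 to 49.2 FPKM in the former and 12.9 to 13.2 in the latter, and 5.27 to 7.23 over the ZR75-1 samples.

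For the converting enzymes, which have nearly the same GC content, the ratio of ECE2 to ECE1 was 5.68 and 5.78 in MDA-MB-468 DMSO samples and 2.79, 4.05 and 3.42 in PKC412 samples. The luminal line had ratios of 2.62 and 2.02 in DMSO and 3.19, 3.28 and 1.74 in PKC412. The treatments did not overlap in MDA-MB-468 and did in ZR75-1, which is a description of 2 and 3 samples per group. How many other ratios would not overlap was not counted. In the main fit of the interaction below, neither enzyme passed (limma adjusted p = 0.577 for ECE1 and 0.951 for ECE2). The summed FPKM of both enzymes was 57.5 to 59.7 in MDA-MB-468 DMSO samples and 45.5 to 52.0 in PKC412 samples.

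**Figure D2:**
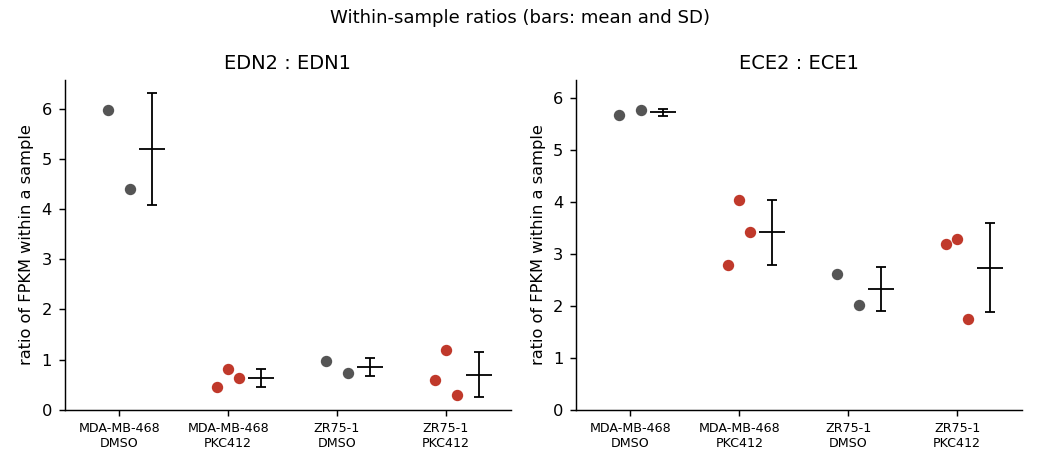
Ratio of FPKM within each sample, EDN2 to EDN1 on the left and ECE2 to ECE1 on the right, with 1 point per sample and the mean and SD beside the points. The ligand ratio was 4.41 or more in the MDA-MB-468 DMSO samples and 1.18 or less in the other 8.

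The ZR75-1 comparison did not enter the choice of the family and was tested. None of the 4 members passed in ZR75-1 (0 of 4 with the adjusted p of limma under 0.05), beside 0.946% of all genes. At an unadjusted p of limma under 0.05 there were 0 of 4 members, beside 1794 of 16071 genes. EDN2 differed by -0.26 on the log2(FPKM + 1) scale (95% interval -0.87 to 0.36, limma adjusted p = 0.784). The interval thus reached a small rise as well as a fall, and the EDN2 samples of the treatments overlapped. EDN1 differed by 0.09 (-0.42 to 0.59, limma adjusted p = 0.940), ECE1 by -0.20 (-0.51 to 0.11, adjusted p = 0.644) and ECE2 by -0.02 (-0.47 to 0.43, adjusted p = 1). The median of the 4 members was -0.11, and that of all genes was 0.07. With the adjustment for GC and length, ECE1 in ZR75-1 passed, with a difference of -0.41 and a limma adjusted p of 0.0343.

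Whether the response differed between the lines was asked with an interaction term, which includes the MDA-MB-468 comparison. Of the 3 members other than EDN2, 0 had an adjusted p under 0.05 in limma, beside 0.268% of all genes. At an unadjusted p of limma under 0.05 there was 1 of the 3, ECE1, beside 1133 of 16071 genes. The EDN2 response differed by -2.53 between MDA-MB-468 and ZR75-1 (SE 0.38, -2.75 to -2.27 over the alternatives), which is a description with no test. For ECE1 the response was higher by 0.54 in MDA-MB-468 (95% interval 0.09 to 0.98, limma adjusted p = 0.577), and with the adjustment for GC and length the value was 0.66 (adjusted p = 0.0313). ECE2 gave -0.36 (SE 0.28, limma adjusted p = 0.951) and EDN1 -0.05 (SE 0.31, adjusted p = 0.978).

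**Figure D3:**
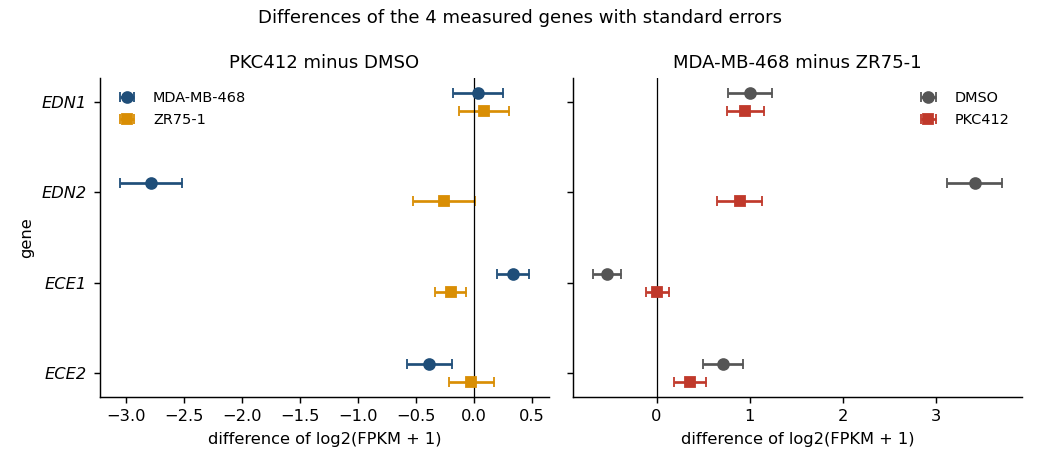
Differences of log2(FPKM + 1) with their standard errors (horizontal axes) for the 4 members measured, PKC412 minus DMSO in each line on the left and MDA-MB-468 minus ZR75-1 in each treatment on the right. EDN2 stood apart, at -2.78 in MDA-MB-468 against -0.26 in ZR75-1, and at 3.42 between the lines in DMSO against 0.89 in PKC412.

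Between the lines in DMSO, EDN1 was 2.28-fold higher in MDA-MB-468, ECE2 1.65-fold higher and ECE1 1.49-fold lower. On the log2(FPKM + 1) scale EDN1 differed by 1.01 (95% interval 0.46 to 1.56, limma adjusted p = 0.00976). ECE2 differed by 0.72 (0.23 to 1.21, limma adjusted p = 0.0265) and ECE1 by -0.53 (-0.87 to -0.18, adjusted p = 0.0215). The mean FPKM of EDN2 was 14.1-fold higher in MDA-MB-468, a log2 difference of 3.42 given as a description. The median of all 4, which includes EDN2 and is a description, was 0.86 against 0.11 for all genes. The 3 members other than EDN2 all passed in DMSO, beside 42.4% of all genes tested. These calls rested on 2 samples per line. That of EDN1 was lost without MDA-MB-468 DMSO replicate 2 or ZR75-1 DMSO replicate 1 (adjusted p = 0.0720 and 0.0616 in limma), that of ECE1 without any of the 4 DMSO samples (0.0650 to 0.104), and that of ECE2 without either MDA-MB-468 sample or ZR75-1 replicate 2 (0.0912 to 0.137) and after median-ratio rescaling (0.54, adjusted p = 0.204).

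In PKC412, EDN1 was again higher in MDA-MB-468, by 2.16-fold (log2 difference 0.95, 95% interval 0.51 to 1.40, limma adjusted p = 0.00335). This EDN1 difference stayed between 0.79 and 1.12 over the alternatives tried. They did not include the adjustment for GC and length, which was not made between the lines. ECE1 differed by 0.01 (-0.27 to 0.29, limma adjusted p = 0.965) and ECE2 by 0.36 (-0.04 to 0.76, adjusted p = 0.111). EDN2 was 2.15-fold higher in MDA-MB-468, a log2 difference of 0.89 given as a description (0.69 to 1.15 over the alternatives). Of the 3 members other than EDN2, 1 passed, EDN1, beside 58.6% of all genes. The median of all 4, which includes EDN2 and is a description, was 0.62 against 0.19 for all genes. The ECE1 difference between the lines passed in DMSO and not in PKC412, and the test of that change is the interaction above, which did not pass.

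The genes whose log2(FPKM + 1) followed EDN2 most closely over the 10 samples, of 12339 genes with a mean above 1 FPKM in a group and the members left out, were FJX1 (Pearson r = 0.986), LOC730755 (0.980), CTGF (0.975), GJA5 (0.974) and PDLIM2 (0.973). The 10 points share the difference between the lines and the treatment in MDA-MB-468 on which EDN2 was chosen, so these are descriptions. CTGF, which encodes a secreted matricellular protein, had 7.40 and 9.30 FPKM in MDA-MB-468 DMSO samples, 0.622 to 0.884 in PKC412 samples and at most 0.203 in ZR75-1. GJA5, which encodes the gap junction protein connexin 40, had 4.36 and 4.65 FPKM in MDA-MB-468 DMSO samples, 0.678 to 0.795 in PKC412 samples and at most 0.0323 in ZR75-1. For each of these genes both DMSO samples of MDA-MB-468 were the highest of the 10.

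FJX1, a homologue of the fly gene four-jointed, had 24.1 and 23.5 FPKM in MDA-MB-468 DMSO samples, 9.16 to 10.2 in PKC412 samples and 5.63 to 7.59 in ZR75-1. PDLIM2, which encodes a PDZ and LIM domain protein, had 23.1 and 20.8 FPKM, 8.53 to 11.8 and 6.61 to 10.5. LOC730755 had 1.65 FPKM in both DMSO samples of MDA-MB-468 and 0.190 to 0.252 in PKC412 samples, and it was listed at 0 in ZR75-1. FJX1 and PDLIM2 thus kept levels in ZR75-1 well above 0, as EDN2 did, and the other 3 were at or near 0 there. Membership of the 5 depended on the settings, and 2 of them remained with a pseudocount of 0.1.

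**Figure D4:**
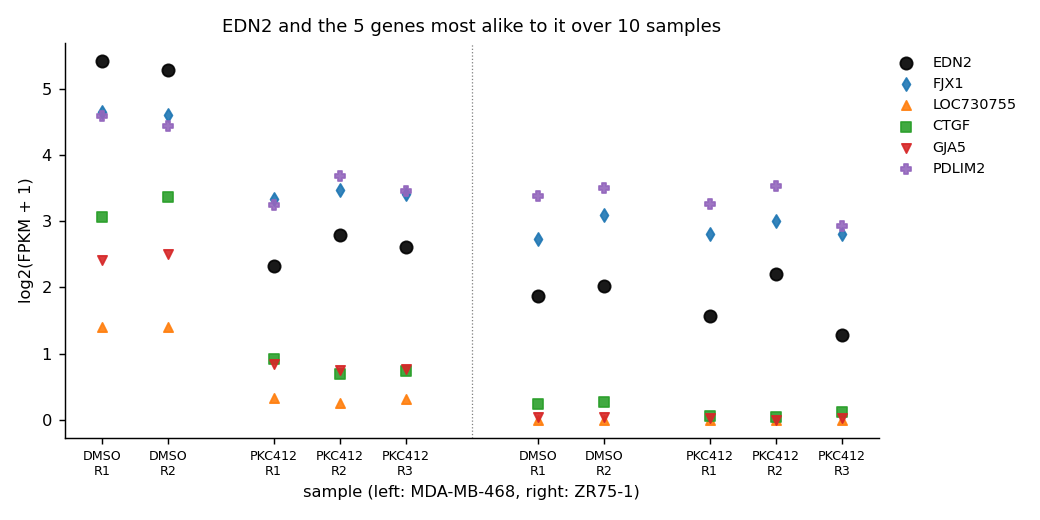
log2(FPKM + 1) (vertical axis) of EDN2 and its 5 most alike genes in each of the 10 samples, MDA-MB-468 left of the dotted line and ZR75-1 right of it. All 6 genes were highest in the MDA-MB-468 DMSO samples, with EDN2 at 42.1 and 38.2 FPKM.

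Of 47 further genes of precursor processing, signalling and EDN1 transcription, 42 were tested, and PLCB1, RGS4, PCSK5, KEL and CMA1 were too low. PKC412 changed 1 of 42 in MDA-MB-468 (1 up, 0 down), beside 1.26% of all genes, with a median of 0.21 against 0.11 for all genes. In ZR75-1 it was 1 of 42 (1 up, 0 down), beside 0.946% of all genes, with a median of 0.26 against 0.07. The gene in MDA-MB-468 was RGS16, which speeds the switching off of G proteins downstream of receptors. Its FPKM was 0.645 and 0.789 in DMSO and 2.85 to 3.56 in PKC412 (log2 difference 1.31, SE 0.22, limma adjusted p = 0.0390). In ZR75-1 it was 4.82 and 6.48 in DMSO and 6.31 to 10.3 in PKC412, with overlap. The response of RGS16 was not shown to differ between the lines (0.77, limma adjusted p = 0.687). Its call in MDA-MB-468 was lost in 7 of the 10 fits that left out 1 sample, with limma adjusted p up to 0.291, and held without MDA-MB-468 PKC412 replicate 2 and without ZR75-1 PKC412 replicate 2 or 3.

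The gene in ZR75-1 was ECEL1, a member of the same metallopeptidase family as the converting enzymes. Its FPKM was 0.935 and 1.05 in DMSO and 3.26 to 3.95 in PKC412 (log2 difference 1.22, SE 0.09, limma adjusted p = 0.00104). It was listed at 0 in all 5 MDA-MB-468 samples. The spread was estimated over all 4 groups together, so these values of 0 added none to it. With the ZR75-1 samples fitted alone, the limma adjusted p of ECEL1 was 0.515. ECEL1 was also the one gene of the 42 that passed in the interaction test (-1.22, limma adjusted p = 0.0120). A gene listed at 0 in MDA-MB-468 could show no fall there, and the value is the ZR75-1 rise with its sign changed. Along with ECEL1 the sum of the fibroblast or smooth muscle markers in ZR75-1 was 4.53 to 5.47 in DMSO and 10.2 to 14.3 in PKC412. COL1A2 and COL3A1 were listed at 0, COL1A1 was at 2.25 to 2.75 and 6.65 to 11.1, and ACTA2 at 2.28 to 2.71 and 3.17 to 3.52. By limma COL1A1 passed as higher in PKC412, 1 of 2 markers tested, beside 0.946% of all genes. The part of these markers in the ECEL1 difference was not tested.

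By function, none of the 8 tested genes of processing and breakdown passed in MDA-MB-468, and ECEL1 passed in ZR75-1. FURIN, which cuts the endothelin precursors, had 4.62 and 5.08 FPKM in DMSO and 7.37 to 8.76 in PKC412 in MDA-MB-468. It did not pass (log2 difference 0.66, limma adjusted p = 0.116). None of the 8 genes of G proteins, the 6 tested of phospholipase C beta and IP3 receptors and the 10 of factors known to act at the EDN1 promoter passed in either line. In the list of arrestins, receptor kinases and RGS proteins 1 of 10 passed in MDA-MB-468 and 0 of 10 in ZR75-1.

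**Figure D5:**
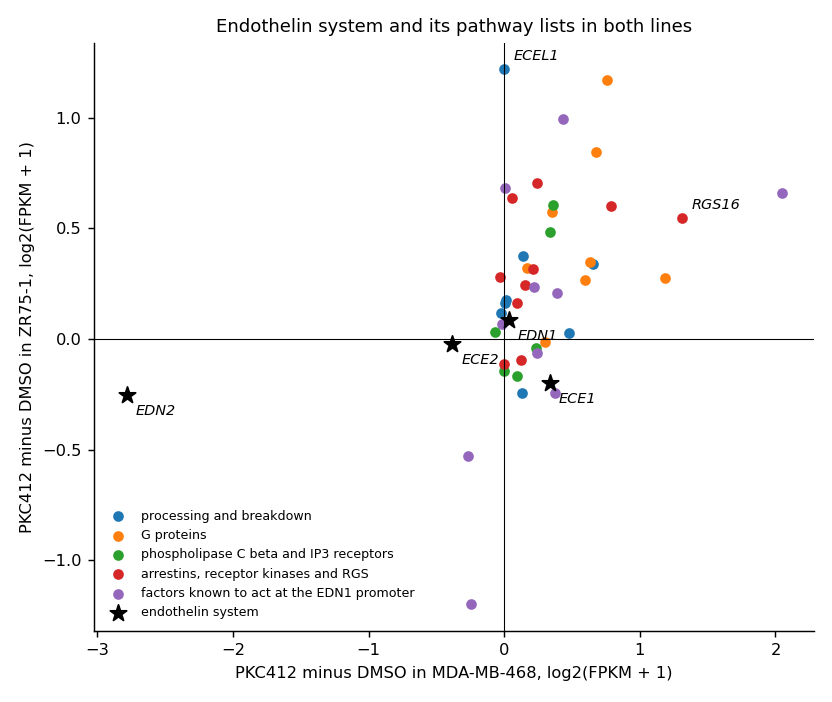
Difference of log2(FPKM + 1) between PKC412 and DMSO in MDA-MB-468 (horizontal axis) and ZR75-1 (vertical axis) for the 42 pathway genes tested, coloured by list, and the 4 members as stars. EDN2 lay at -2.78 and -0.26, RGS16 at 1.31 and 0.55, and ECEL1 at 1.22 in ZR75-1 and 0 in MDA-MB-468, where it was listed at 0.

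Between the lines in DMSO 24 of the 42 pathway genes passed, beside 42.4% of all genes (12 higher and 12 lower in MDA-MB-468, median -0.13 against 0.11 for all genes). In PKC412 26 of 42 passed, beside 58.6% of all genes (15 higher and 11 lower, median 0.15 against 0.19). Of processing and breakdown, 5 of 8 were lower in MDA-MB-468 and 2 higher in both treatments. MME, the gene of neprilysin, which degrades endothelins, had a mean of 2.13 ± 0.337 FPKM in MDA-MB-468 and 0.00995 in ZR75-1 in DMSO (log2 difference 1.63, limma adjusted p = 9.58e-05). FURIN was lower in the basal line, with 4.85 ± 0.326 against 11.0 ± 0.143 FPKM (SD, n = 2; log2 difference -1.04, limma adjusted p = 0.00157). CTSA, whose product cathepsin A also degrades endothelins, was at 56.2 ± 1.18 against 117.2 ± 1.51 FPKM (log2 difference -1.05, limma adjusted p = 6.42e-05).

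Genes downstream of the receptors were compared as well, with the receptors themselves at or near 0. Of the phospholipase C beta and IP3 receptor list, 3 of 6 tested passed, all higher in MDA-MB-468 in both treatments. Beside them, 42.4% of all genes passed in DMSO and 58.6% in PKC412. PLCB3 was at 13.5 ± 1.58 FPKM in MDA-MB-468 and 4.83 ± 0.355 in ZR75-1 in DMSO (log2 difference 1.32, limma adjusted p = 0.000168). The receptor kinase gene GRK5 was higher in MDA-MB-468 (4.40 ± 0.561 against 0.286 ± 0.004 FPKM, log2 difference 2.07). The G protein gene GNAI2 was lower there (27.6 ± 2.42 against 134 ± 15.4 FPKM, log2 difference -2.24). Of the 10 factors known to act at the EDN1 promoter, 5 passed in DMSO, beside 42.4% of all genes. In MDA-MB-468, 2 of them were higher (RELA and FOS) and 3 lower (GATA2, SMAD4 and VEZF1). RELA, a subunit of NF-κB, was among the higher ones, with 41.9 ± 0.386 against 20.5 ± 0.479 FPKM (log2 difference 0.99, limma adjusted p = 0.000120). GATA2 was among the lower ones, with 1.31 ± 0.189 against 3.01 ± 0.919 FPKM (log2 difference -0.78, limma adjusted p = 0.0322).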

How the data were processed

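RNA of MDA-MB-468 and ZR75-1 cells (10 samples) was extracted with Trizol, and libraries were sequenced on a HiSeq. The deposited FPKM values per gene symbol came from an in-house pipeline of the authors, and the submitters' processing notes name hg19, CASAVA 1.82 and TopHat2. The annotation and the use of strand were not given in the sources used here. Depth was unknown, so precision was taken from the spread between samples.

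Groups came from the sample labels. FPKM were tested as log2(FPKM + 1), a scale that understates differences of low genes, with limma 3.58.1 (R 4.3.3): 4 group means in one fit, moderated variances with a trend, genes with a mean above 0.1 FPKM in at least 1 group (16071), Benjamini-Hochberg adjustment over all of them, threshold 0.05. The members and gene lists were chosen with earlier results of these data known. Genes named were the members, genes of the pathway lists past the threshold and the 5 genes most correlated with EDN2; FURIN in the MDA-MB-468 comparison was named after its values were seen. Alternatives were other pseudocounts, filters, scalings and variance models, a replicate block and each sample left out. An adjustment for GC content and transcript length from GENCODE release 29 was added after seeing the data. It was made for the treatment comparisons and the interaction, and not between the lines. Gene coordinates are GRCh38, another build than the authors'. Promoter windows are from RefSeq. The markers, 9 basal, 9 luminal, 5 endothelial and 5 fibroblast or smooth muscle genes, served to describe the lines. Of a further list, of immune markers, CD14, PTPRC and CD3E are reported. Tables were handled in Python 3.11.15.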

Additional observations from a re-analysis of the deposited data

Results flagged for a closer look

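ECEL1 is the one gene of the members and pathway lists that passed the interaction test, with a log2 difference of -1.22 (limma adjusted p = 0.0120). It was listed at 0 in all 5 MDA-MB-468 samples and had 0.935 and 1.05 FPKM in DMSO and 3.26 to 3.95 in PKC412 in ZR75-1. The interaction value is therefore the ZR75-1 rise with its sign changed, and it adds nothing about a response in MDA-MB-468. The call was lost with a pseudocount of 0.1 (-1.78, limma adjusted p = 0.0715), under the replicate block (adjusted p = 0.894) and without MDA-MB-468 DMSO replicate 1 or 2 or PKC412 replicate 1 or 3 (adjusted p 0.0576 to 0.0795). The rise within ZR75-1 had a limma adjusted p of 0.00938 or less without any one sample, and 0.515 when the ZR75-1 samples were fitted alone.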

How the results depend on the processing

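Of the members' calls, those between the lines in DMSO depended most on the settings, as given above. EDN1 and ECE1 were also lost there when the 4 DMSO samples were fitted alone (limma adjusted p = 0.0576 and 0.0524). The EDN2 difference in MDA-MB-468 stayed between -2.99 and -2.49 in 19 alternatives, and in ZR75-1 between -0.51 and -0.05.

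Differences near 0 that had passed no test changed sign, and the cause was not tested. For EDN1 in MDA-MB-468 (0.03) these were -0.28 with GC and length adjusted, -0.10 with rescaling and -0.10 to 0.17 without 1 sample. For EDN1 in ZR75-1 (0.09) these were -0.0146 with rescaling, -0.0754 with the block, -0.0260 with GC and length adjusted, and -0.15 to 0.32 without 1 sample. For ECE2 in ZR75-1 (-0.02) it was 0.15 with the block and -0.20 to 0.16 without 1 sample. The EDN1 interaction (-0.05) was 0.11 with the block and -0.29 to 0.19 without 1 sample. ECE1 between the lines in PKC412 (0.01) was -0.17 with rescaling and -0.0645 to 0.11 without 1 sample.

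Counts of genes called by limma moved too. In MDA-MB-468 the count of 202 was 116 with a pseudocount of 0.1, 67 with only the groups compared, 581 with GC and length adjusted and 65 to 333 without 1 sample. In ZR75-1 the count of 152 (120 higher, 32 lower) was 2 with only the groups compared, 453 with GC and length adjusted (280 higher, 173 lower) and 58 to 182 without 1 sample. The interaction count of 43 was 27 with a pseudocount of 0.1, 68 with no filter, 68 with no variance trend, 210 with GC and length adjusted and 16 to 62 without 1 sample. Fits that left a group with 1 sample assumed that it varied like the other groups.

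Same-numbered samples did not deviate together (correlations of -0.69 and -0.61 in MDA-MB-468 and 0.12 and -0.63 in ZR75-1 over 7685 genes), so the numbers were not taken as pairs. With the replicate block, limma called 0 genes in MDA-MB-468, 0 in ZR75-1 and 0 in the interaction (703, 589 and 445 at an unadjusted p under 0.05), and 6022 and 8622 between the lines.

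Of the 5 genes most alike to EDN2, 4 remained with a pseudocount of 0.5, 3 with a mean above 0.1 FPKM and 3 with GC and length adjusted. Depth was unknown, so values near 0 have no floor.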
